A study of Mus musculus with 6 samples.

Results

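The genes described here are 48 genes of the cell division cycle, which copy the DNA in S phase or separate the copies in mitosis. They were chosen by name, and for each symbol the transcript row with the highest summed count over the 6 libraries was kept. The 48 members are part of 23992 gene symbols in the table, and all 48 passed the filter on low counts that left 12720 tested genes. Of the members, 12 belong to the replication class (Mcm2 to Mcm7, Pcna, Gins2, Rrm1, Rrm2, Cdc6 and Cdt1), 28 to the mitotic class, and 8 to neither.

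A dividing cell licenses its replication origins in G1, when Cdc6 and Cdt1 load the ring of MCM proteins onto DNA. Cyclin E and E2F factors then drive entry into S phase, and ribonucleotide reductase and thymidine-handling enzymes supply the building blocks. Cyclin A, cyclin B and Cdk1 lead into mitosis, where kinetochores, spindle motors and the Aurora and Polo kinases sort the chromosomes. Most transcripts of these genes are abundant in cycling cells and scarce in resting ones, and regulatory T cells (Treg cells, which depend on the factor Foxp3 and hold back other immune cells) include cycling cells in mice.

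The libraries were made from Treg cells sorted as live CD4+YFP+ cells from CD45.2 male mice, and the labels give the source as lymph nodes and spleen that were pooled, whereas the name of the deposited table mentions lung. The WT group (3 libraries) is Foxp3YFP-Cre/Y, and the KO group (3 libraries) is Foxp3YFP-Cre/Y Crlf2fl/fl, so that both groups carry the Cre and fluorescent protein allele at Foxp3 and differ in the floxed allele of Crlf2, the receptor subunit for the cytokine TSLP. The Cre is driven by Foxp3, so deletion is aimed at Foxp3-expressing cells. Age and number of mice per library are not given in the labels used here, so p-values measure the spread between these libraries, which may be technical. Titles and genotype tags give the grouping used, whereas the strain lines of the descriptions are swapped between the groups.

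Library totals ran from 1439740 counts in WT replicate 2 to 18352405 in KO replicate 3, and the other 4 held 7971204 to 12180562. Crlf2 was at 115 ± 27.7 CPM (CPM is the read count relative to library size, scaled between libraries by TMM, the trimmed mean of M values) in WT and 6.44 ± 2.76 CPM in KO (SD, n = 3 each), in the direction of the titles. All 6 Treg markers checked, Foxp3 among them, were well detected in each library, but at a lower share in WT replicate 3. Their share of counts was 0.141% in that library and 0.290% to 0.328% elsewhere. Foxp3 was at 200 CPM in WT replicate 3 and at 386 to 489 CPM elsewhere. WT replicate 3 stood apart by its erythroid markers, at 14.5% of counts against 0.171% to 0.686% elsewhere. The 10 lung epithelial markers took 1.75% to 7.87% of counts in WT and 0.258% to 2.03% in KO, although spleen and lymph node are the labelled tissues. Macrophage markers took 0.0380%, 0.0790% and 0.718% in WT replicates 1 to 3 and 0.262% to 0.283% in KO. B cell markers took 0.0323% in WT replicate 3 and at most 0.00303% elsewhere, and CD8 T and NK markers 0.0124% and at most 0.00262%.

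Promoter sequence, which the choice of members did not use, differed between the classes. Promoter windows of 300 bases, from 250 before to 50 after the start of transcription, were taken from RefSeq (GRCm38.p6) for 39 of the 48 members, in 41 windows because Mcm7 and E2f2 have 2 each. Searched on both strands were the cell cycle homology region (CHR, here TTTGAA or TTCGAA), which is known from mitotic promoters, the E2F site (TTTCCCGC, TTTCGCGC, TTTGCCGC or TTTGGCGC, whose matches on opposite strands may overlap), known from replication promoters, and the CCAAT box (CCAAT). The following 6 windows, from 200 before to 30 after the start, show the called gene, 3 mitotic genes and 2 replication genes, 5′ to 3′ on the strand of the gene, with all matches in capitals.
Birc5: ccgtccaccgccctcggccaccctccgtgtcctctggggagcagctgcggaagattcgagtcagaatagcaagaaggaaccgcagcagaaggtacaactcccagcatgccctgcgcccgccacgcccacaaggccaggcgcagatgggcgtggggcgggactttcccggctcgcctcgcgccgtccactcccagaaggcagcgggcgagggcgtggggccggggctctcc
Top2a: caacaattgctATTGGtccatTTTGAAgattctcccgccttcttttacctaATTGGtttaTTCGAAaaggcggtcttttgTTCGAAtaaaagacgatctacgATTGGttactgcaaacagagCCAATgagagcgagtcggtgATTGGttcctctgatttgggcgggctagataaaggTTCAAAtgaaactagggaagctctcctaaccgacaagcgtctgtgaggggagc
Ccnb2: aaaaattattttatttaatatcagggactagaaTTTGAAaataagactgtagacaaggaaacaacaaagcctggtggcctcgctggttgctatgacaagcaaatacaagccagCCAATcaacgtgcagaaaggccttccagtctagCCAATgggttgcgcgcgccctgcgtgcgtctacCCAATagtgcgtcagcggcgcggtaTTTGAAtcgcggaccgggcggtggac
Cdk1: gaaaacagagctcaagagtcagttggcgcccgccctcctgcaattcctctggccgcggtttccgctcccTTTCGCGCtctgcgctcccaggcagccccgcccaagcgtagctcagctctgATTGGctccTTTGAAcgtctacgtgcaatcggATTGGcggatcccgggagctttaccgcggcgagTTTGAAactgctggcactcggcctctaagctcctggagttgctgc
Mcm3: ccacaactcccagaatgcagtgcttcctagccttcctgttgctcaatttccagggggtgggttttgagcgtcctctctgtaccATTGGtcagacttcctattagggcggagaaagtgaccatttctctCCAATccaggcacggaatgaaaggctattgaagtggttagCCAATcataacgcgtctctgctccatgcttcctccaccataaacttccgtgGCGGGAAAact
Mcm6: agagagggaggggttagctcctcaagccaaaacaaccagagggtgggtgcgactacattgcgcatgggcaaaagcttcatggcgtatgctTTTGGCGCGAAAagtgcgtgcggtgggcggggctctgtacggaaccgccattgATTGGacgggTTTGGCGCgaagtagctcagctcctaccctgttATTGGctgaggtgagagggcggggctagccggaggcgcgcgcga
The windows lie at chr11:117849037-117849266, plus strand (Birc5), chr11:99024160-99024389, minus strand (Top2a), chr9:70421525-70421754, minus strand (Ccnb2), chr10:69352883-69353112, minus strand (Cdk1), chr1:20820283-20820512, minus strand (Mcm3) and chr1:128359676-128359905, minus strand (Mcm6).

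In the printed windows Top2a held 4 CHR and 5 CCAAT matches, Ccnb2 held 2 and 3, and Cdk1 held 2 and 2 with 1 E2F match. Mcm3 held 1 E2F and 3 CCAAT matches and Mcm6 held 3 and 2, with no CHR match in either. The window of Birc5 held none of these letters, which says only that they are not in this stretch. Over the full windows, CHR letters were in 19 of 23 mitotic windows (82.6%), 2 of 11 replication windows (18.2%) and 19.2% of all 32851 promoter windows. E2F letters were in 6 of 11 replication windows (54.5%), 1 of 23 mitotic windows (4.35%) and 2.26% of all windows. The CCAAT box was in 82.6% of mitotic, 81.8% of replication and 37.4% of all windows, so it did not separate the classes. The plot of motif positions shows many of the CHR matches of mitotic genes close to the start site.

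**Figure D1:**
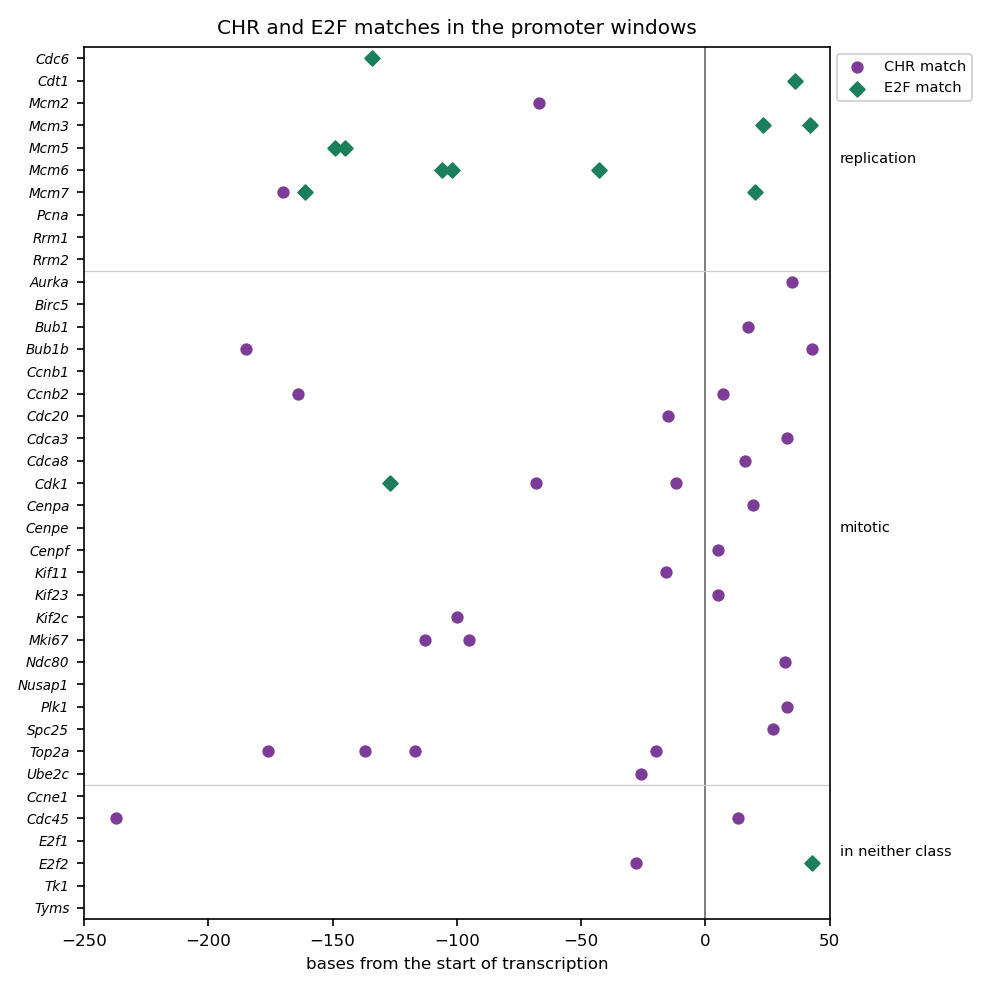
Position of each CHR match (purple circles) and E2F match (green diamonds) in the promoter windows of 39 members (rows, by class), in bases from the start of transcription (x axis); the windows of Mcm7 and E2f2, 2 each, share a row. CHR matches fall in 19 of the 23 mitotic genes, and E2F matches in 6 of the 10 replication genes.

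Across the 48 genes, transcript levels were mostly lower in the KO libraries, but by less than 2-fold for most, and 1 gene passed the test. Log2 fold changes, KO against WT, were negative for 41 of 48 members (54.2% of all tested genes) with a median of -0.55, beside a median of -0.04 over all tested genes. Birc5, which encodes survivin of the chromosomal passenger complex, was the only member called by edgeR's quasi-likelihood test after Benjamini-Hochberg adjustment over all 12720 genes, where 0.983% of genes were called lower and 0.755% higher. At an unadjusted p under 0.05, 19 members were lower (9.13% of all tested genes) and 0 higher (6.74%). In 21 members (43.8%) every KO library was below every WT library, which held for 11.5% of tested genes, and no member had the reverse order, which 10.4% of tested genes had.

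At least 1.5-fold lower values were found for 23 members and at least 2-fold lower values for 5, while 1 member, E2f1, was at least 1.5-fold higher. DESeq2 called 6 members, all lower (Rrm1, Top2a, Birc5, Ccna2, Kif20a and Tk1), where it called 3.9% of all tested genes lower, and limma-voom called Birc5 and Tk1, where it called 1.38% lower. The plot of members by library shows these 21 genes together with the 27 whose groups overlap. In bulk RNA, fewer cycling cells and less RNA per cycling cell cannot be told apart.

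**Figure D2:**
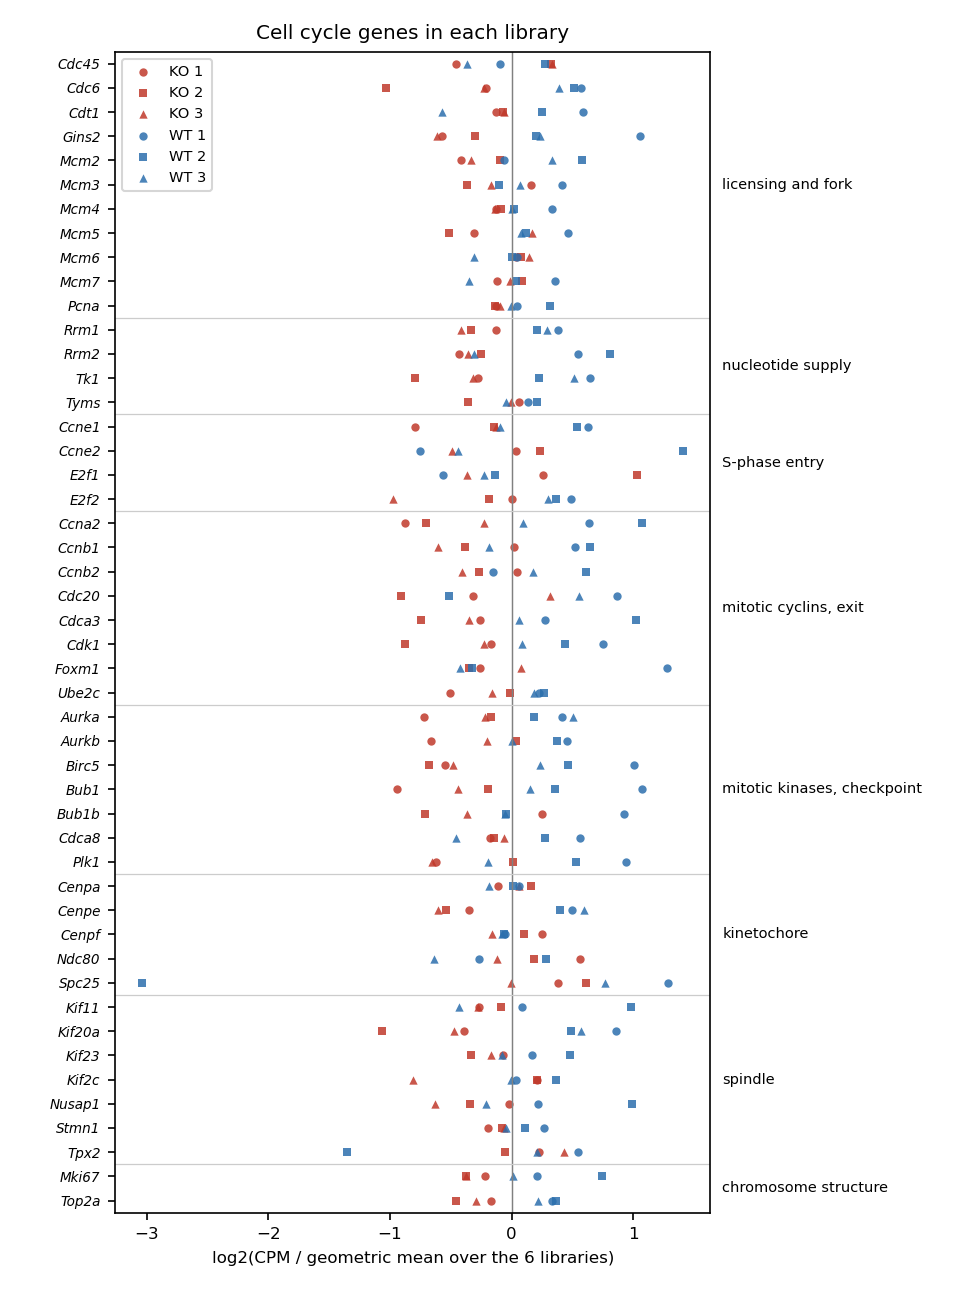
Level of each of the 48 genes (rows, grouped by role) in each library, as log2 of its CPM over the geometric mean of the 6 libraries (x axis); red points are KO, blue points WT, and the shape gives the replicate. In 21 genes all red points lie left of all blue points, and the far-left point of Spc25 is WT replicate 2, where the gene had 1 read.

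The libraries did not contribute equally to this difference. WT replicate 1 had the highest value for 24 members and WT replicate 2 for 16, whereas WT replicate 3 and each KO library had the highest value for 2. The lowest value fell in a KO library for 36 members and in WT replicate 3 for 8. Without WT replicate 3, edgeR called 4 members lower (Rrm2, Birc5, Ccna2 and Plk1) beside 2.13% of all tested genes, and 31 members had KO below WT throughout, against 17.8% of tested genes. Without any 1 of the other 5 libraries no member was called, with 12 to 16 members at an unadjusted p under 0.05 and lower, beside 5.96% to 10% of all tested genes. The 8 members lowest in WT replicate 3 lay in the library with 14.5% erythroid counts, and the part of its other cells in these values was not tested.

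Among the 11 genes of origin licensing and the replication fork, the helicase subunits Mcm2 to Mcm7 showed unequal differences. Mcm2 was at 74.9, 116 and 98 CPM in WT replicates 1 to 3 and at 58.4, 73.2 and 61.9 CPM in KO replicates 1 to 3. The groups did not overlap, and the log2 fold change was -0.57 (SE 0.19, adjusted p = 0.190 by edgeR). Mcm6 was at 254, 246 and 198 CPM in WT and at 252, 260 and 272 CPM in KO, with overlapping groups and a log2 fold change of 0.17 (SE 0.13, adjusted p = 0.577 by edgeR). The other 4 subunits had log2 fold changes of -0.42 (Mcm5), -0.26 (Mcm3), -0.25 (Mcm4) and -0.05 (Mcm7). Although the 6 proteins form a ring with 1 copy of each, Mcm6 had the highest transcript level per length of the 6, with a mean of 85.1 CPM per kilobase, followed by Mcm3 at 40.9, Mcm7 at 32.7, Mcm4 at 25.8, Mcm2 at 23.9 and Mcm5 at 23.2. The level of Mcm6 per length was 4.12 to 5.11 times that of Mcm2 in KO and 2.35 to 3.94 times in WT, a ratio chosen after the values were seen and not tested.

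Of the licensing factors, Cdt1 had a mean level of 25.7 CPM per kilobase, within the range of the 6 ring genes, and Cdc6 one of 1.70, below all of them. Cdc6, the ATPase that recruits MCM, was at 10.7, 10.3 and 9.46 CPM in WT and at 6.23, 3.52 and 6.16 CPM in KO, so the groups were apart (log2 fold change -0.93, SE 0.39, adjusted p = 0.299 by edgeR). Its partner Cdt1 was at 82.0, 65.0 and 36.7 CPM in WT and at 49.9 to 52.2 CPM in KO. WT replicate 3 lay below all KO libraries for Cdt1, and the log2 fold change was -0.25 (SE 0.27). Gins2, part of the complex that activates the helicase, was at 30.9, 17.1 and 17.5 CPM in WT and at 10.03, 12.1 and 9.71 CPM in KO. All KO values of Gins2 were below all WT values, with a log2 fold change of -1.06 (SE 0.32, adjusted p = 0.153 by edgeR), and the gene overlaps Gse1, whose reads could not be separated without a known strand setting. Cdc45, the other helicase cofactor, differed by 0.18 (SE 0.33) with overlapping groups. Pcna, the sliding clamp of DNA polymerases, was at 85.6, 103 and 82.5 CPM in WT and at 76.0, 75.5 and 77.6 CPM in KO. These groups were apart by a small margin, with a log2 fold change of -0.24 (SE 0.14, adjusted p = 0.474 by edgeR).

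All 4 genes of deoxynucleotide supply had negative log2 fold changes, with a median of -0.67. Tk1, the thymidine kinase of the salvage pathway, was at 50.4, 37.6 and 45.9 CPM in WT and at 26.7, 18.7 and 25.9 CPM in KO. KO was below WT throughout, and the log2 fold change was -0.92 (SE 0.22, adjusted p = 0.0851 by edgeR). Rrm1, the large subunit of ribonucleotide reductase, was at 62.5, 55.4 and 58.6 CPM in WT and at 43.8, 38.1 and 35.9 CPM in KO. The Rrm1 groups were also apart (log2 fold change -0.59, SE 0.16, adjusted p = 0.119 by edgeR). Rrm2, the small subunit that is made in S phase, was at 113, 135 and 62.7 CPM in WT and at 57.5 to 65.1 CPM in KO, so that WT replicate 3 lay within the KO range. Its log2 fold change of -0.75 (SE 0.26) had an adjusted p = 0.208 by edgeR, and of 0.0112 without WT replicate 3. Tyms, the thymidylate synthase, had a log2 fold change of -0.18 (SE 0.18).

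Of the 4 regulators of S-phase entry, 3 had negative log2 fold changes and 1, E2f1, a positive one (median -0.51). Ccne1, which encodes cyclin E1, was at 31.4, 29.4 and 19.0 CPM in WT and at 11.7, 18.3 and 18.6 CPM in KO. The lowest WT value lay just above the highest KO value, and the log2 fold change was -0.70 (SE 0.30, adjusted p = 0.306 by edgeR). Ccne2, the paralog, was scarce, at 2.14 to 9.58 CPM in WT and 2.56 to 4.24 CPM in KO (log2 fold change -0.32, SE 0.69). E2f2, an activating E2F factor, was at 55.9, 51.3 and 49.1 CPM in WT and at 40.0, 35.1 and 20.3 CPM in KO, with groups apart and a log2 fold change of -0.72 (SE 0.26, adjusted p = 0.224 by edgeR). E2f1, of the same subfamily, was at 7.62, 10.3 and 9.65 CPM in WT and at 13.5, 23.1 and 8.77 CPM in KO. The groups of E2f1 overlapped through KO replicate 3, and its log2 fold change of 0.73 (SE 0.41, adjusted p = 0.441 by edgeR) was the highest among the 48 members. Per length, E2f1 was at 0.651 to 1.27 times the level of E2f2 in KO and at 0.263 to 0.385 times in WT, again a ratio chosen after the values were seen.

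All 8 genes of the mitotic cyclins, Cdk1 and mitotic exit had negative log2 fold changes, with a median of -0.66. In 4 of the 8 (50%) the groups were apart and lower in KO, against 11.5% of all tested genes. Ccna2, which encodes cyclin A2, was at 56.3, 76.0 and 38.7 CPM in WT and at 19.7, 22.3 and 31.0 CPM in KO. The groups did not overlap, and the log2 fold change was -1.20 (SE 0.29, adjusted p = 0.0863 by edgeR). Cdk1, the mitotic kinase itself, was at 29.7, 23.9 and 18.7 CPM in WT and at 15.7, 9.61 and 15.1 CPM in KO, also apart (log2 fold change -0.84, SE 0.30, adjusted p = 0.224 by edgeR). Cyclin B1, from Ccnb1, was at 30.8, 33.5 and 18.8 CPM in WT and at 21.7, 16.4 and 14.1 CPM in KO, and here WT replicate 3 fell within the KO range (log2 fold change -0.65, SE 0.30, adjusted p = 0.333 by edgeR). Cdca3, a protein that helps to trigger mitotic entry, and Ube2c, the ubiquitin-conjugating enzyme of the anaphase-promoting complex, had groups apart at -0.92 (SE 0.30) and -0.43 (SE 0.19). Ccnb2, Cdc20 and Foxm1 had overlapping groups, and the Foxm1 difference rested on WT replicate 1, at 31.2 CPM against 9.55 to 13.6 CPM in the other libraries. Without WT replicate 1 the log2 fold change of Foxm1, a transcription factor for mitotic genes, was 0.23.

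The mitotic kinases, their checkpoint and the passenger complex held the called gene. Birc5 (mm10, chr11:117849237-117855743, plus strand) was at 81.7, 56.1 and 47.7 CPM in WT replicates 1 to 3 and at 27.8, 25.5 and 29.1 CPM in KO replicates 1 to 3. The KO libraries agreed closely and all lay below the lowest WT library. Birc5 fell from 61.8 ± 17.7 CPM to 27.5 ± 1.87 CPM (SD, n = 3 each), a 2.26-fold decrease (log2 fold change -1.17, SE 0.23, adjusted p = 0.0466 by edgeR). This call lay close to the threshold. Leaving out KO replicates 1, 2 and 3 in turn gave an adjusted p of 0.239, 0.154 and 0.233 by edgeR, and leaving out the WT replicates gave 0.0938, 0.0922 and 0.0125. When the share of lung epithelial markers was added to the fit, an alternative picked with the data in view, the log2 fold change was -0.87 and the adjusted p = 0.182 by edgeR.

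The other 6 genes of that group all had negative log2 fold changes, from -0.31 to -1.08. Plk1, the Polo kinase, was at 65.4, 49.3 and 29.8 CPM in WT and at 22.2, 34.4 and 21.7 CPM in KO. WT replicate 3 lay below KO replicate 2, and the log2 fold change was -0.88 (SE 0.32, adjusted p = 0.229 by edgeR). Aurka, the spindle-pole Aurora kinase, had groups apart at 16.4 to 20.5 CPM in WT and 8.76 to 12.8 CPM in KO, and Bub1, a spindle checkpoint kinase, at 4.16 to 7.89 CPM and 1.95 to 3.28 CPM. Aurkb and Cdca8, partners of survivin in the passenger complex, had log2 fold changes of -0.53 (SE 0.24) and -0.31 (SE 0.25), with overlapping groups. Bub1b overlapped too, at -0.59 (SE 0.39).

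The 5 centromere and kinetochore genes were the group with the least common direction, with a median log2 fold change of 0.08. Cenpe, a kinetochore motor, was at 12.4, 11.6 and 13.3 CPM in WT and at 6.91, 6.08 and 5.79 CPM in KO. Every WT library had more than every KO library, and the log2 fold change was -0.999 (SE 0.32, adjusted p = 0.176 by edgeR). Cenpa, the histone H3 variant that marks centromeres, was at 107, 104 and 90.5 CPM in WT and at 95.4, 115 and 108 CPM in KO. The Cenpa groups overlapped (log2 fold change 0.08, SE 0.14, adjusted p = 0.837 by edgeR). Ndc80, the microtubule-binding core of the kinetochore, differed by 0.44 (SE 0.38) and Cenpf by 0.14 (SE 0.24), both with overlapping groups. Spc25, a partner of Ndc80, had 1 read in WT replicate 2 and 75 to 107 reads in the other libraries, so its log2 fold change of -0.25 had an SE of 0.69.

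Of the 7 spindle genes, 6 had negative log2 fold changes. In 2 (28.6%) the groups were apart and lower in KO, against 11.5% of all tested genes. Kif20a, a kinesin of the central spindle, was at 20.3, 15.7 and 16.6 CPM in WT and at 8.57, 5.36 and 8.09 CPM in KO. All KO values were well below all WT values, and its log2 fold change of -1.26 (SE 0.32, adjusted p = 0.101 by edgeR) was the lowest of the 48. Kif20a overlaps Brd8 and Cdc23 in the annotation. Stmn1, a microtubule destabilizer and, at 143 CPM per kilobase, the member with the highest level per length, was at 182, 164 and 146 CPM in WT and at 132, 143 and 145 CPM in KO, with the lowest WT value just above the highest KO value (log2 fold change -0.23, SE 0.13). Nusap1, which bundles spindle microtubules, had a log2 fold change of -0.69 (SE 0.34, adjusted p = 0.368 by edgeR) and overlapping groups. Kif11, Kif23 and Kif2c had log2 fold changes of -0.49 to -0.18, and Tpx2 of 0.15 (SE 0.41) with 9 reads in WT replicate 2.

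Both genes of chromosome structure had groups apart and lower in KO, as 11.5% of all tested genes did. Mki67, which encodes the proliferation antigen Ki-67, was at 87.9, 127 and 76.4 CPM in WT and at 65.3, 58.6 and 58.6 CPM in KO. WT replicate 2 was the highest and the KO libraries were nearly level, with a log2 fold change of -0.66 (SE 0.20, adjusted p = 0.156 by edgeR). Top2a, the topoisomerase that untangles sister DNA, was at 86.3, 88.3 and 79.8 CPM in WT and at 61.0, 49.9 and 56.1 CPM in KO. The spread within each Top2a group was small beside the difference, at -0.60 on the log2 scale (SE 0.14), with an adjusted p = 0.0863 by edgeR. The plot of fold changes shows both near the middle of the mitotic class.

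**Figure D3:**
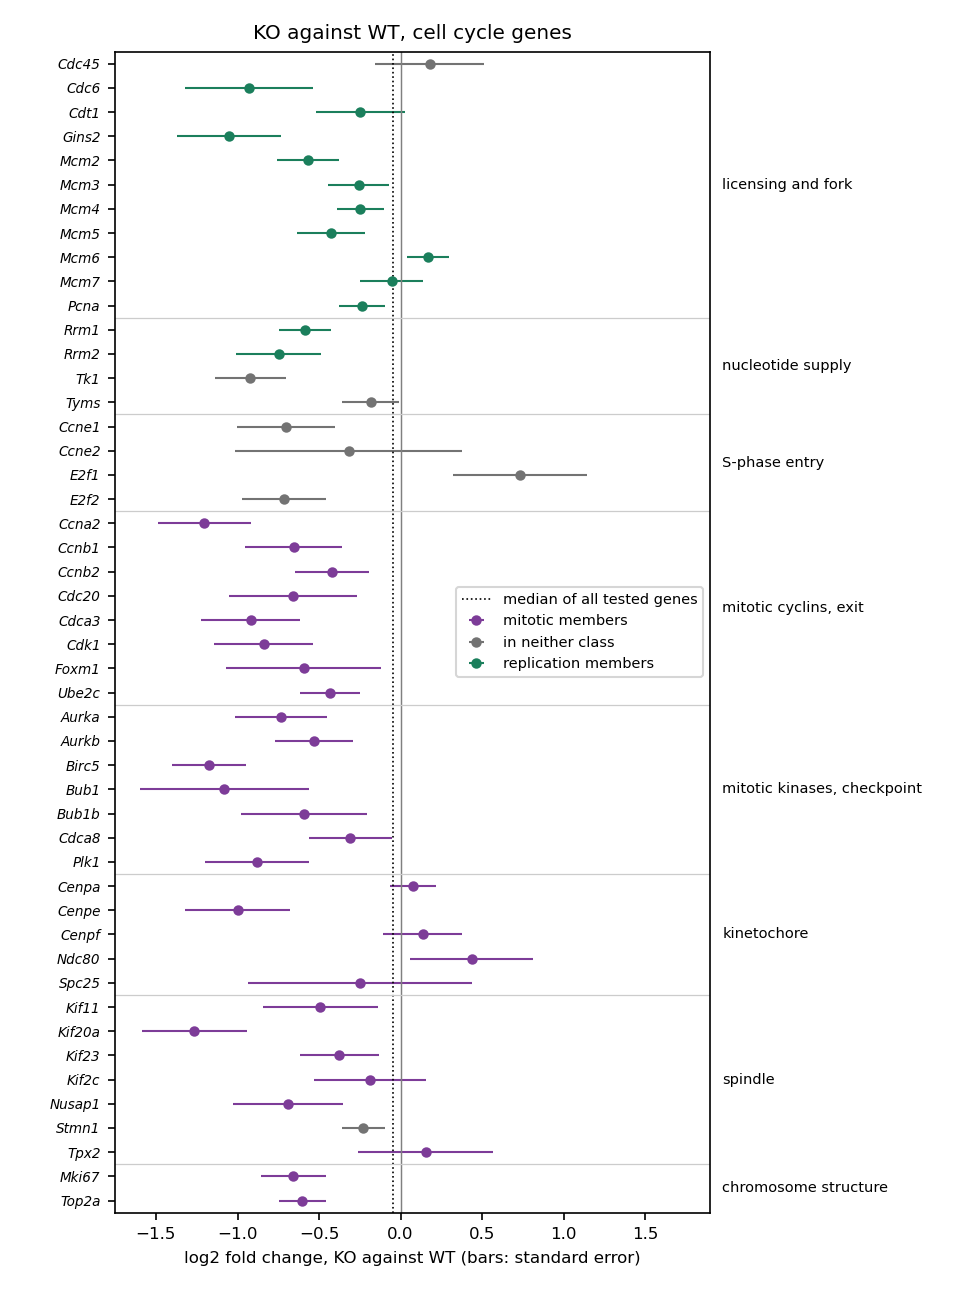
Log2 fold change, KO against WT (x axis), of each of the 48 genes (rows, grouped by role), with its standard error as the bar; colours give the replication class, the mitotic class and the 8 genes in neither, and the dotted line is the median of all tested genes at -0.04. Of the 48 points, 41 lie below 0, and 3 of the 5 kinetochore genes lie above it.

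The mitotic class had the lower median log2 fold change of both classes. It was -0.60 over the 28 mitotic members, 24 of them negative, and -0.34 over the 12 replication members, 11 of them negative. Of the 28 mitotic members 11 (39.3%) were apart and lower in KO, and of the 12 replication members 6 (50%). The share apart was thus not higher in the mitotic class, and over all tested genes it was 11.5%. edgeR called 1 mitotic and 0 replication members, where it called 0.983% of all tested genes lower. At an unadjusted p under 0.05 by edgeR, 11 of 28 and 5 of 12 were lower, similar shares, beside 9.13% of all tested genes. DESeq2 called 4 of 28 and 1 of 12, where it called 3.9% of all tested genes lower. Counting Cdc45, Tyms and Tk1 with the replication members moved the median of that class to -0.26. The difference of the medians, -0.26 on the log2 scale, is a description with no test, and it ran from -0.12 (limma-voom) to -0.28 (without KO replicate 2) over the alternatives, below 0 in each of the 14.

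Summed over each class, the levels showed the same order. The 12 replication genes summed to 1190, 1113 and 920.2 CPM in WT and to 902, 892 and 926 CPM in KO, so WT replicate 3 lay within the KO range. The 28 mitotic genes summed to 1107, 1091 and 841 CPM in WT and to 708, 691 and 705 CPM in KO, and here every WT library was above every KO library. The KO mean was 84.4% of the WT mean for replication genes and 69.2% for mitotic genes.

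The ratio of the mitotic to the replication sum, taken within each library and so free of the scaling between libraries, was 0.930, 0.980 and 0.914 in WT and 0.784, 0.774 and 0.761 in KO. Its mean was 0.941 ± 0.0341 in WT and 0.773 ± 0.0119 in KO (SD, n = 3 each), and the groups were apart. Since Mcm6 alone carries a large part of the replication sum, the ratio was also taken without it, at 1.20 ± 0.0487 in WT and 1.09 ± 0.00818 in KO, with WT libraries at 1.17 to 1.26 and KO libraries at 1.08 to 1.09. The plot of class levels shows the 3 quantities by library.

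**Figure D4:**
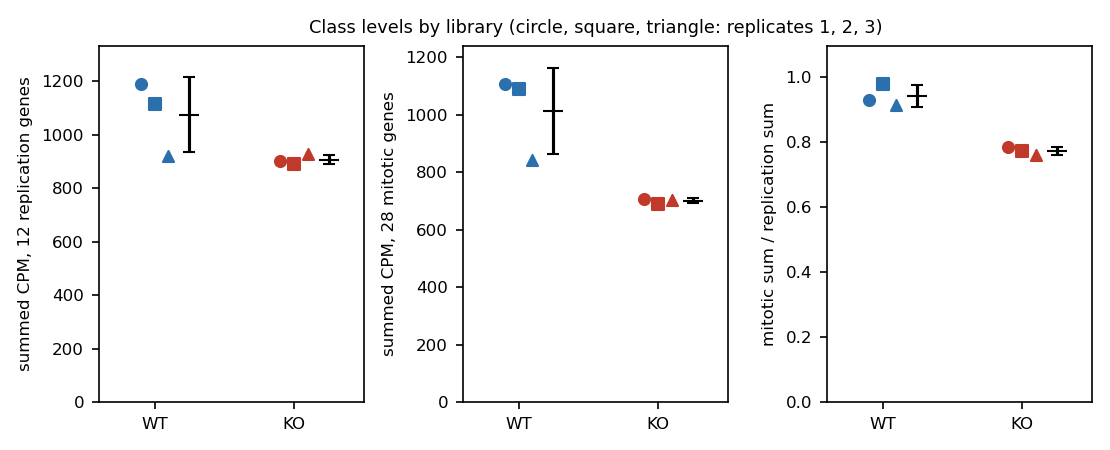
Summed CPM of the 12 replication genes (left), summed CPM of the 28 mitotic genes (middle) and the ratio of the sums (right) in each library, with WT in blue and KO in red; black bars are the mean and SD of 3 libraries. WT replicate 3 (triangle) lies at the KO level in the left panel and above it in the other panels.

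Set against T cell transcripts, WT replicate 3 no longer stood with the KO libraries. Per 100 reads of 13 pan-T cell genes there were 16.2, 15.6 and 17.7 reads of mitotic genes in WT and 9.44, 10.1 and 8.74 in KO, and 17.4, 15.9 and 19.4 reads of replication genes in WT and 12.04, 13.1 and 11.5 in KO. The pan-T genes themselves took 0.640%, 0.710% and 0.411% of counts in WT and 0.735% to 0.842% in KO, and 11 of the 13 had positive log2 fold changes (median 0.22, 4 at an unadjusted p under 0.05, none called), so a higher denominator in KO is part of these ratios. With the libraries scaled to these pan-T genes the medians were -0.89 for mitotic and -0.65 for replication members, while the median of all tested genes moved from -0.04 to -0.36. Relative to all genes, the classes then stood at -0.53 and -0.29, against -0.56 and -0.30 with TMM. In that scaling 46 of 48 members were negative (80.4% of all tested genes), Mcm6, Cenpa, Cenpf, Tpx2 and Cdc45 among them, while all 5 of these stayed above the median of all tested genes, as they were with TMM. Lung epithelial markers were lower in KO in the median (-1.83), and with their share as a covariate the class medians were -0.49 and -0.31, while the part of other cells in the differences was not tested. The plot of settings shows the mitotic median below the replication median in every fit.

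**Figure D5:**
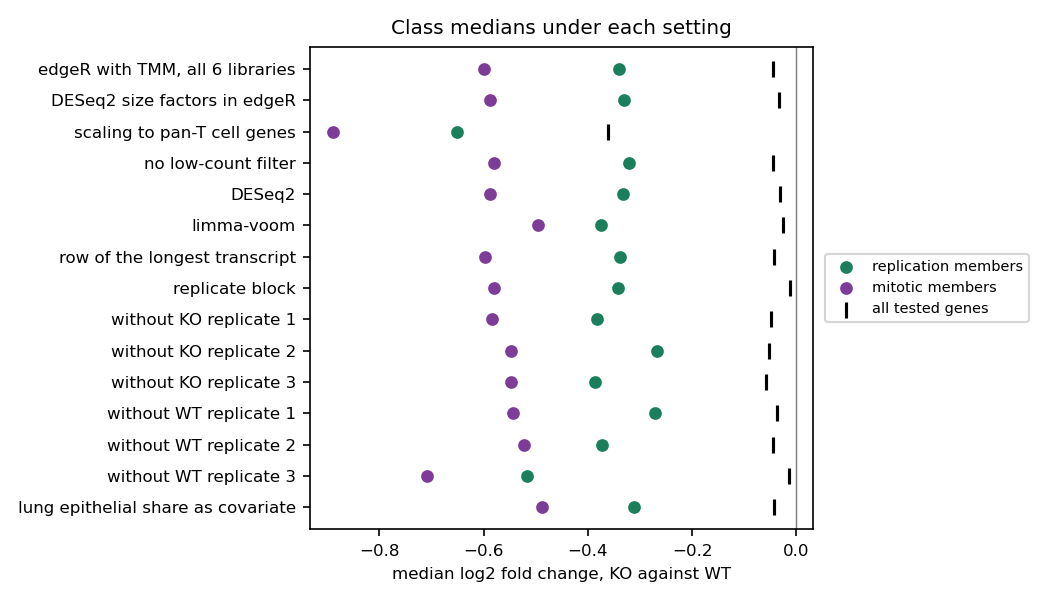
Median log2 fold change, KO against WT (x axis), of the 12 replication genes (green), the 28 mitotic genes (purple) and all tested genes (black tick) in the reported fit and under each of the 14 alternatives (rows). The purple points range from -0.89 to -0.49 and the green points from -0.65 to -0.27.

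Genes of the same pathway that are not members also had mostly negative log2 fold changes. Of 42 further replication genes 37 had negative log2 fold changes (median -0.35), and of 56 further mitotic genes 45 (median -0.38). These medians lay closer together than those of the replication and mitotic members, at -0.34 and -0.60. Over all tested genes 54.2% were negative. edgeR called none of them, with 4 replication and 7 mitotic genes lower at an unadjusted p under 0.05 and 1 and 0 higher. Of all tested genes 9.13% were lower and 6.74% higher at that threshold. DESeq2 called 2 and 1 lower (3.9% of all tested genes), and limma-voom none (1.38%). For the size of the lists, these counts of lower genes lay near the shares over all tested genes. Groups were apart and lower in 19.05% of the replication and 25% of the mitotic genes, against 11.5% of all tested genes. Mcm10, which helps to start the fork, was at 12.7, 14.4 and 7.85 CPM in WT and at 4.19, 3.20 and 5.22 CPM in KO, with groups apart (log2 fold change -1.44, SE 0.42, adjusted p = 0.141 by edgeR). Rfc5, a subunit of the clamp loader, differed by -0.81 (SE 0.23). Ncapg2, a condensin subunit, was at 29.7, 30.1 and 21.7 CPM in WT and at 12.5, 11.2 and 13.1 CPM in KO, apart with a log2 fold change of -1.14 (SE 0.25, adjusted p = 0.0666 by edgeR), and Cks1b, a small Cdk partner, differed by -0.50 (SE 0.17).

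Upstream of these, the 25 tested genes of the D cyclins, G1 kinases, pocket proteins and E2F partners were split, with 15 negative and 10 positive and a median of -0.16. edgeR called none of them, with 4 lower and 1 higher at an unadjusted p under 0.05, beside 9.13% and 6.74% of all tested genes. DESeq2 called 2 lower and 1 higher, and limma-voom 1 of each. Of all 12720 tested genes DESeq2 and limma-voom called 3.9% and 1.38% lower (496 and 176 genes), and 367 and 133 genes higher. Myc, a driver of cell growth, was at 128, 84.2 and 127 CPM in WT and at 59.0, 64.8 and 49.3 CPM in KO. Its groups were apart, and the log2 fold change of -0.99 (SE 0.20) had an adjusted p = 0.0515 by edgeR. Rbl2, which encodes the pocket protein p130 of resting cells, was at 154, 176 and 114 CPM in WT and at 256, 245 and 247 CPM in KO, with KO above WT throughout (log2 fold change 0.76, SE 0.16, adjusted p = 0.0660 by edgeR).

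Of 21 CDK inhibitors and genes linked to quiescence, 12 had negative and 9 positive log2 fold changes. edgeR called 1, lower, where it called 0.983% of all tested genes lower. At an unadjusted p under 0.05 by edgeR 4 were lower and 3 higher, beside 9.13% and 6.74% of all tested genes. DESeq2 and limma-voom each called 1 lower and 1 higher. Of all 12720 tested genes they called 3.9% and 1.38% lower (496 and 176 genes), and 367 and 133 genes higher. Gadd45g, a stress-induced gene that can arrest the cycle, was at 187, 168 and 157 CPM in WT and at 57.5, 86.2 and 64.2 CPM in KO. Gadd45g fell from 170.5 ± 15.0 to 69.3 ± 15.0 CPM (SD, n = 3 each; log2 fold change -1.30, SE 0.18, adjusted p = 0.0181 by edgeR). The adjusted p by edgeR was 0.116 and 0.146 when KO replicates 1 and 3 were left out, and 0.0602 and 0.0590 when WT replicates 1 and 2 were. Adding the epithelial share to the fit gave a log2 fold change of -1.18 and an adjusted p = 0.106 by edgeR. Named after their values were seen, the inhibitor genes Cdkn1a and Cdkn1b, for p21 and p27, differed by 0.02 (SE 0.31, overlapping) and 0.27 (SE 0.15, KO above WT throughout), and Btg1, an antiproliferative gene, by 0.62 (SE 0.15, adjusted p = 0.0937 by edgeR). Cdkn2c and Klf2, looked at in the same way, differed in the other direction, by -0.50 (SE 0.38) and -0.41 (SE 0.29), both with overlapping groups.

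Against the promoter windows shown above, the mitotic members with a CHR match did not have the lower median. The 19 mitotic genes with a match had a median log2 fold change of -0.49, with 7 apart and lower in KO, and the 4 without (Birc5, Ccnb1, Cenpe and Nusap1) a median of -0.84, with 2 apart. Among the replication members, the 6 genes with an E2F match (Mcm3, Mcm5, Mcm6, Mcm7, Cdc6 and Cdt1) had a median of -0.25 with 1 apart, and the 4 without (Mcm2, Pcna, Rrm1 and Rrm2) a median of -0.58 with 3 apart. These splits are descriptions of few genes, with no test, and 11.5% of all tested genes were apart and lower in KO. Birc5 and Tk1 lie 23.15 kb from each other on chromosome 11, and Top2a and Cdc6 lie 69.0 kb from each other on the same chromosome. KO was below WT throughout for all 4, as for 43.8% of all members and 11.5% of all tested genes. These pairs were picked by name, without a scan of other neighbours, so nothing about position follows from them.

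Among the members, level and difference were nearly unrelated. The Spearman correlation across the 48 genes of the mean level per length with the log2 fold change was 0.18, a description over genes that share the same 6 libraries. Levels per length ran from 0.954 CPM per kilobase for Bub1 and 1.20 for Cenpe to 77.3 for Cenpa, 85.1 for Mcm6 and 143 for Stmn1. The spread between libraries of 1 group was larger in WT than in KO for 29 members, with a median SD of log2 CPM of 0.32 in WT and 0.25 in KO, beside 0.37 and 0.21 over all tested genes. In WT replicate 2, the shallowest library, the members had 1 to 359 reads, so counting error weighs most there.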

How the data were processed

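RNA was sequenced from sorted Treg cells of 6 samples, 3 KO and 3 WT. The deposited table holds a whole-number count of reads for each RefSeq transcript, and its length, per the file headers. Bowtie2 2.2.6, TopHat2 2.2.1, bcl2fastq and build mm10 are named, per the submitters' processing notes. How reads were counted and whether by strand is not given in the sources used here, so reads of overlapping genes (15 of the 48 members overlap another gene) cannot be separated. No member had counts identical to another symbol (0), all rows named a gene, and 0 per-sample columns were left unused. No pair of libraries agreed within sampling noise (lowest chi-square per degree of freedom 13.2).

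A single row per symbol, that of the highest total, entered. Low genes were removed by filterByExpr (min.count 10, min.total.count 15), and the rest were scaled by TMM, and KO was compared with WT by the quasi-likelihood F-test of edgeR 4.0.16 (robust, no block) in R 4.3.3, with Benjamini-Hochberg adjustment and a threshold of 0.05. The standard error (SE) was taken as the size of the log2 fold change over the root of F. CPM are TMM-scaled over tested genes, and log2 CPM for spreads used CPM plus 0.5. Alternatives were DESeq2 1.42.0, limma-voom (limma 3.58.1), other scalings, no filter, the longest transcript, a replicate block and leaving out each library. The members and lists were chosen with earlier results of these data known. Statistics are given for called members, for 8 fixed members (Mki67, Top2a, Cdk1, Ccnb1, Mcm2, Pcna, Ccne1 and E2f1), for the 2 of smallest p per role and for others as examples. From other pathway lists up to 4 called genes, or the 2 of smallest p, are named. A count of 0 in WT replicate 2 would allow 2.08 CPM (3 counts), which covers counting error only. Sequences are from RefSeq tables of GRCm38.p6, the assembly of mm10.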

Additional observations from a re-analysis of the deposited data

How the results depend on the processing

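The number of genes called by edgeR (221) became 863 with DESeq2, 309 with limma-voom, 198 when scaled to pan-T genes and 123 with a replicate block. It became 8 with the share of epithelial markers as a covariate, and 4 to 518 when 1 library was left out. The number of members called (1) became 2 when scaled to pan-T genes, 6 with DESeq2, 2 with limma-voom, 0 with the replicate block or the covariate, and 0 to 4 when 1 library was left out. Among all 12720 tested genes, 173 were called lower with pan-T scaling, 496 with DESeq2 and 176 with limma-voom, against 125 in the reported fit. Members with KO below WT throughout (21) numbered 32 when scaled to pan-T genes and 22 to 31 when 1 library was left out, while the share of all tested genes went from 11.5% to 21.5% and to 14.2% to 18.8%. The replication median of -0.34 was -0.65 when scaled to pan-T genes and ran from -0.52 to -0.27 with 1 library left out. The mitotic median of -0.60 was -0.89 and ran from -0.71 to -0.52. The difference between them, -0.26, was -0.12 with limma-voom, -0.18 with the covariate, and -0.28 to -0.15 with 1 library left out. The cause of these moves was not tested.

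Of the 48 members 37 kept 1 sign in all 14 alternatives, and 41 in the 13 other than pan-T scaling. That scaling moved the median of all tested genes from -0.04 to -0.36, and with it the log2 fold changes of Mcm6, Cenpa, Cenpf, Tpx2 and Cdc45 became -0.12, -0.21, -0.17, -0.18 and -0.11, all above that median. Mcm7 became 0.0037 with limma-voom and 0.19 with the covariate, Cdt1 0.092 and Foxm1 0.33 with the covariate, Spc25 0.043 with the replicate block and 0.51 with the covariate, and Ccne2 0.24 with limma-voom. With 1 library left out, Mcm7 ran from -0.23 (without WT replicate 3) to 0.16 (without WT replicate 1) and was 0.0032 without KO replicate 1. Cdt1 ran from -0.53 to 0.069 and Foxm1 from -0.93 to 0.23, the upper value in both without WT replicate 1. Spc25 ran from -0.68 (without WT replicate 2) to 0.27 (without WT replicate 1), Ccne2 from -0.67 (without WT replicate 1) to 0.56 (without WT replicate 2) and Tpx2 from -0.15 (without WT replicate 2) to 0.48 (without WT replicate 1). Kif2c was 0.091 without KO replicate 3.

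Replicate numbers gave no sign of pairing: deviations from the group means correlated at 0.0919, -0.148 and -0.0428 for replicates 1, 2 and 3. Between unlike replicate numbers the correlations ran from -0.143 to 0.19. With so few libraries this check cannot exclude a pairing. With the replicate block Birc5 had a log2 fold change of -1.13 (adjusted p = 0.102 by edgeR) and the class medians were -0.58 (mitotic) and -0.34 (replication). The covariate and the counts of members apart were added as alternatives after seeing the data. WT replicate 2, with 1439740 counts, limits the scarcest members.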

Other observations

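Histone genes, whose products package newly copied DNA, were looked at after the data were seen. Of 66 tested genes whose symbol marks them as clustered histone genes, 44 had negative and 22 positive log2 fold changes, with a median of -0.17. Over all tested genes 54.2% were negative, with a median of -0.04. edgeR and limma-voom called none. In edgeR 8 were lower and 2 higher at an unadjusted p under 0.05, beside 9.13% and 6.74% of all tested genes. DESeq2 called 3, all lower, where it called 3.9% of all tested genes lower. KO was below WT throughout for 9.09% of the histone genes, against 11.5% of all tested genes. The counts of lower histone genes were thus near those over all tested genes. In 3 of the 66 KO was above WT throughout, beside 10.4% of all tested genes. Hist2h3c1, for histone H3, was at 370.2, 386 and 203 CPM in WT and at 192, 180.4 and 144 CPM in KO, with KO below WT throughout (log2 fold change -0.89, SE 0.24, adjusted p = 0.121 by edgeR). Near-identical copies of H3 genes share reads, so this value is uncertain. Hist1h1c, a linker histone gene, had a log2 fold change of 0.55 (SE 0.20, adjusted p = 0.230 by edgeR), with overlapping groups. Hist2h2bb had the highest log2 fold change of the 66, at 1.41 (SE 0.41, adjusted p = 0.143 by edgeR). It was at 2.94, 3.42 and 3.12 CPM in WT and at 9.44, 6.88 and 8.67 CPM in KO, with KO above WT throughout and 5 reads in WT replicate 2.

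Of the D cyclins, which connect growth signals to the cycle, Ccnd2 and Ccnd3 had mean levels of 59.1 and 164.8 CPM per kilobase and Ccnd1 of 11.9. Ccnd1 was at 137, 35.6 and 44.1 CPM in WT and at 19.9, 23.3 and 11.4 CPM in KO, so the groups were apart with a wide spread in WT (log2 fold change -2.02, SE 0.56, adjusted p = 0.145 by edgeR). WT replicate 1, the highest for Ccnd1, was also the library with 7.87% lung epithelial markers, and the part of other cells in this value was not tested. Lig1, the DNA ligase of replication, was 1 of 5 among the 42 further replication genes with a positive log2 fold change, and the 1 with an unadjusted p under 0.05 by edgeR. It was at 68.5, 69.1 and 46.8 CPM in WT and 91.8, 82.2 and 116 CPM in KO, with KO above WT throughout (log2 fold change 0.66, SE 0.21, adjusted p = 0.159 by edgeR).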
